A study of Mus musculus with 6 samples.

Results

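The crossover genes *Msh4*, *Msh5*, *Mlh3*, *Rnf212*, *Ccnb1ip1*, *Tex11*, *Hfm1* and *Cntd1* were chosen by name, and each was found once, as 8 of the 54532 genes in an RNA-seq table of mouse testis. All 8 were tested. The RNA came from STRA8+ germ cells, with 3 control libraries, whose genotype is labelled Cre, and 3 libraries labelled Srsf1 knockout (*Srsf1* cKO), and the question was how the crossover genes differ with the loss of *Srsf1*, which encodes a splicing factor of the SR family. The Cre driver, the age of the mice, the way STRA8+ cells were obtained and any floxed allele in the controls are not given in the sources used here. The labels do not say that the replicates are separate mice, so the p-values measure the spread between these libraries, which may be technical.

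Meiotic recombination starts with programmed DNA double-strand breaks, and a small share of them is repaired as crossovers, which hold homologous chromosomes together until they separate. Most mouse crossovers belong to class I, in which ZMM proteins stabilise the joined DNA molecules in zygotene and early pachytene spermatocytes, RING-domain proteins narrow the many sites to a few, and the MutLγ nuclease marks and resolves the final sites. A smaller class II depends on structure-specific nucleases such as MUS81.

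Between 14447887 and 17310353 fragments were counted per library, and 98 to 4774 of these fell on each crossover gene. *Srsf1* was at 8.36% of its control FPKM in the cKO libraries, and *Stra8*, which marks the cells, averaged 244 ± 20.3 FPKM in control against 272 ± 36.4 FPKM in cKO libraries (SD, n = 3). FPKM are fragments per kilobase of annotated exons scaled to library size, so a comparison of levels between genes depends on the exon length used. The libraries differed in later germ cell stages. Summed over 10 spermatid markers, the FPKM was 2585, 8503 and 2542 in control replicates 1 to 3 and from 9.34 to 11.3 in the cKO libraries, so that control replicate 2 stood apart. In bulk RNA, fewer cells of a stage and less RNA per cell cannot be told apart.

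Of the 8 crossover genes, *Cntd1*, *Msh4* and *Hfm1* were lower and *Tex11* was higher in *Srsf1* cKO cells, and *Msh5*, *Mlh3*, *Rnf212* and *Ccnb1ip1* were not called. A gene was called at a limma Benjamini-Hochberg adjusted p of at most 0.05 over 15451 genes. The 3 lower genes are 37.5% of the crossover genes, against 22.2% of all genes tested, and the 1 higher gene is 12.5%, against 11.8%. The count of lower genes rests on single libraries. It was 1 of 8 (12.5%) without cKO replicate 1, against 19.1% of all genes in that fit, and 1 of 8 without cKO replicate 3, against 17.4%. With the replicate number as a block it was also 1 of 8, against 18.6%. In each of these fits the share of lower crossover genes was below the background. The background of higher genes also moved. It was 4.37% with no filter, 5.77% with the replicate number as a block, 6.27% without cKO replicate 3 and 33.4% under quantile normalization. *Tex11* was the 1 higher crossover gene in each of these fits, so nothing is read from its share. The control and cKO libraries did not overlap for 4 of the 8 genes, or 50% of them, against 50.4% of all genes tested, which is no excess. The median log2 fold change of the 8 genes was -0.13, against -0.0082 for all genes. Log2 fold changes compare cKO with control after 1 was added to each FPKM, which understates the change of low genes.

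**Figure D1:**
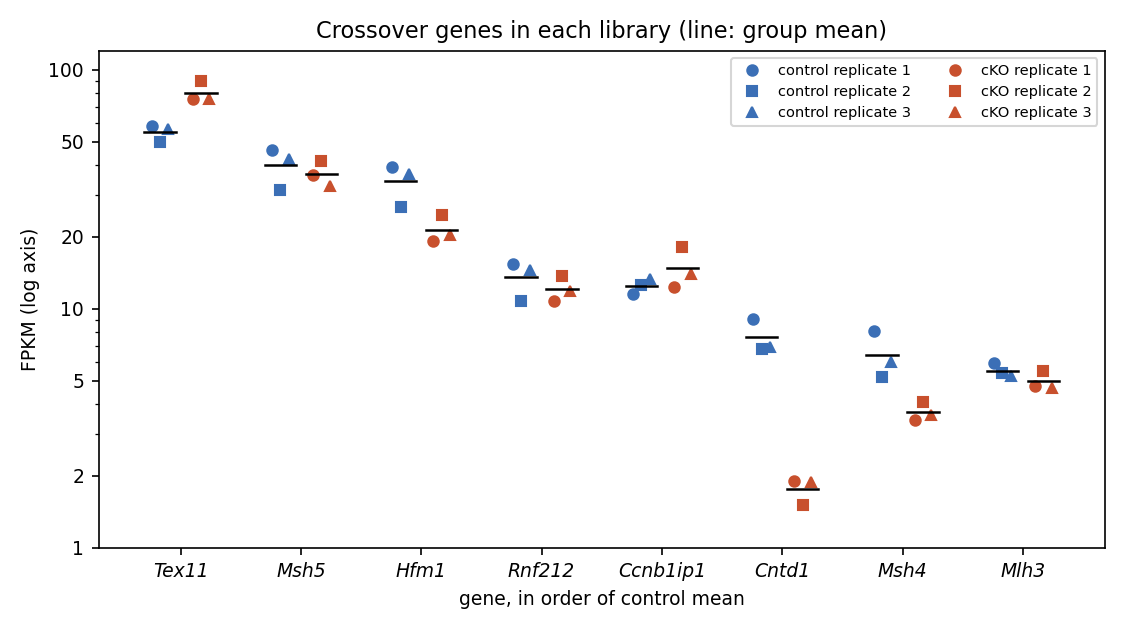
FPKM of the 8 crossover genes on a log axis, in order of the control mean, with each point a library (blue, control; orange, cKO; the shape marks the replicate) and a line at each group mean. The groups are apart for *Tex11*, *Hfm1*, *Cntd1* and *Msh4*, with *Tex11* the higher in cKO cells, and they overlap for the other 4 genes.

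*Cntd1* had the largest difference of the 8. It encodes a cyclin-like protein that is needed for the late step in which a few sites are chosen as crossovers. Its FPKM was 9.06, 6.80 and 6.90 in control replicates 1 to 3 and 1.90, 1.51 and 1.89 in cKO replicates 1 to 3. Every cKO library was thus below every control library, and the spread within each group was small beside the gap. The control mean was 7.59 ± 1.28 FPKM and the cKO mean 1.77 ± 0.220 FPKM (SD, n = 3), so that 23.3% of the control level was left, a 4.29-fold difference. The log2 fold change was -1.63 (standard error 0.14, 95% confidence interval -1.96 to -1.30, limma adjusted p = 1.8e-04). Behind these values are 660, 461 and 528 fragments in the control libraries and 132, 98 and 127 in the cKO libraries. *Cntd1* was called lower in 15 of 15 alternatives.

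*Cntd1* (ENSMUSG00000078653) spans bases 101279012 to 101296317 of chromosome 11 (GRCm38) and is read from the plus strand. In the GENCODE M21 annotation, 3104 of its 4421 exonic bases (70.2%) are also exonic in *Becn1*, an autophagy gene on the opposite strand, and 82 in *Coa3*. The exons share no base with another gene over 1235 bases. Whether fragments were counted by strand is not given in the sources used here, and without strand the reads of such overlapping genes cannot be told apart. *Becn1* averaged 21.3 ± 1.18 FPKM in control against 17.1 ± 1.18 FPKM in cKO libraries (log2 fold change -0.31, standard error 0.081, limma adjusted p = 0.027), and its part in the *Cntd1* result was not tested.

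*Msh4* and *Msh5* encode the subunits of MutSγ, the heterodimer that clamps onto joined DNA molecules and stabilises them. Both are read from the minus strand, *Msh4* (ENSMUSG00000005493) on chromosome 3 of GRCm38, from 153857149 to 153906138, and *Msh5* (ENSMUSG00000007035) on chromosome 17, from 35028605 to 35046745. *Msh4* FPKM was 8.10, 5.20 and 6.003 in the control libraries and 3.42, 4.07 and 3.60 in the cKO libraries. The groups did not overlap, and control replicate 1 was well above the other control libraries. The means of 6.44 ± 1.496 and 3.70 ± 0.335 FPKM (SD, n = 3) put *Msh4* in cKO cells at 57.5% of control (log2 fold change -0.65, standard error 0.16, 95% confidence interval -1.02 to -0.27, limma adjusted p = 0.019). The call was lost without cKO replicate 1 (log2 fold change -0.60, adjusted p = 0.064) and without cKO replicate 3 (-0.63, adjusted p = 0.066). *Msh4* was also not called with the replicate number as a block (-0.65, adjusted p = 0.056) or under quantile normalization (-0.34, adjusted p = 0.14). Each of these values was still below 0. *Msh5* FPKM was 46.0, 31.3 and 42.3 in the control and 36.1, 41.7 and 32.5 in the cKO libraries. These ranges overlapped widely, and *Msh5* was not called (39.9 ± 7.66 against 36.8 ± 4.61 FPKM, log2 fold change -0.10, 95% confidence interval -0.48 to 0.27, limma adjusted p = 0.65). The sign of the *Msh5* value turned without control replicate 1 (0.0072) and under scaling to early meiotic prophase genes (0.051).

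Since both subunits act as a heterodimer, their ratio within each library was computed. *Msh4* over *Msh5* was 0.176, 0.166 and 0.142 in control and 0.0948, 0.0977 and 0.111 in cKO libraries. Each cKO ratio was below each control ratio, and the mean was 0.626 times that of control. With 3 libraries against 3 the smallest exact permutation p is 0.1, so no ratio could reach 0.05. The two-sided exact permutation p of this ratio was 0.1, or 0.15 after Benjamini-Hochberg adjustment over the 6 ratios computed, 1 of which is not reported here.

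*Hfm1*, the mouse counterpart of yeast Mer3, encodes a DNA helicase of the ZMM group, and *Tex11*, on the X chromosome, encodes the counterpart of Zip4, a scaffold that links ZMM proteins. *Hfm1* (ENSMUSG00000043410) spans 106840192 to 106926321 of chromosome 5, on the minus strand. *Hfm1* FPKM was 39.0, 26.5 and 36.7 in control and 19.2, 24.7 and 20.4 in cKO libraries. The groups did not overlap, but control replicate 2 lay just above cKO replicate 2. The mean fell from 34.1 ± 6.64 to 21.4 ± 2.89 FPKM (SD, n = 3), 62.9% of control (log2 fold change -0.63, standard error 0.16, 95% confidence interval -1.02 to -0.25, limma adjusted p = 0.023). The *Hfm1* call was lost without control replicate 1 (-0.53, adjusted p = 0.075), control replicate 3 (-0.57, adjusted p = 0.074), cKO replicate 1 (-0.56, adjusted p = 0.076) or cKO replicate 3 (-0.60, adjusted p = 0.078). *Hfm1* was also not called with the replicate number as a block (-0.63, adjusted p = 0.068).

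*Tex11* (ENSMUSG00000009670) spans 100838648 to 101059667 of the X chromosome, on the minus strand. *Tex11* FPKM was 58.0, 49.7 and 56.6 in the control libraries and 75.3, 90.0 and 75.1 in the cKO libraries. Every cKO library was above every control library, which no other crossover gene showed. The mean rose from 54.8 ± 4.47 to 80.1 ± 8.52 FPKM (SD, n = 3), 146% of control (log2 fold change 0.54, standard error 0.10, 95% confidence interval 0.30 to 0.78, limma adjusted p = 0.0065). It was called higher in 16 of 16 alternatives, apart from the limit of 1 on the absolute log2 fold change, which it did not reach. The ratio of *Hfm1* to *Tex11* in a library, 0.672, 0.534 and 0.649 in control, was 0.256, 0.275 and 0.271 in cKO libraries. Since *Hfm1* was lower and *Tex11* higher in every cKO library, the separation of this ratio was fixed by the values above and is no further result.

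*Rnf212* and *Ccnb1ip1*, which encodes HEI10, are RING-domain genes whose products act on SUMO and ubiquitin at recombination sites and so set which sites mature. They lie on the minus strand of chromosome 5 (*Rnf212*, ENSMUSG00000055385, 108729290 to 108774982) and of chromosome 14 (*Ccnb1ip1*, ENSMUSG00000071470, 50789248 to 50807732). *Rnf212* FPKM was 15.3, 10.8 and 14.6 in control and 10.8, 13.8 and 11.9 in cKO libraries. *Ccnb1ip1* FPKM was 11.5, 12.5 and 13.3 in control and 12.3, 18.2 and 14.0 in cKO libraries. Both genes overlapped between the groups, and the highest *Ccnb1ip1* value was in cKO replicate 2. Neither was called. *Rnf212* had a log2 fold change of -0.14 (95% confidence interval -0.49 to 0.21, limma adjusted p = 0.51), which turned to 0.039 under quantile normalization and to 0.0075 under scaling to early meiotic prophase genes. *Ccnb1ip1* had 0.22 (95% confidence interval -0.12 to 0.56, adjusted p = 0.27), which was 0.073 without cKO replicate 2 and 0.34 without cKO replicate 1. *Rnf212* over *Ccnb1ip1* within a library was 1.10 ± 0.235 in control and 0.827 ± 0.0631 in cKO libraries (SD, n = 3), with overlapping groups (exact permutation p = 0.2, adjusted p = 0.24). *Ccnb1ip1* shares 233 exonic bases, or 12.4% of its length, with *Rpph1* on its own strand, which is listed at 0 in 5 libraries and at 0.825 FPKM in cKO replicate 3.

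*Mlh3* encodes the nuclease subunit of MutLγ. The gene (ENSMUSG00000021245) spans 85234520 to 85270599 of chromosome 12, on the minus strand. Its FPKM was 5.93, 5.41 and 5.21 in control and 4.73, 5.50 and 4.68 in cKO libraries. The groups overlapped through cKO replicate 2, and *Mlh3* was not called (log2 fold change -0.13, 95% confidence interval -0.37 to 0.12, limma adjusted p = 0.38). The value was 0.16 under quantile normalization and 0.0031 under scaling to early meiotic prophase genes. Over the 4 genes that were not called, the intervals leave room for log2 fold changes from -0.49 (*Rnf212*) to 0.56 (*Ccnb1ip1*), so a missed call does not show that a gene kept its level.

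The order of levels differed between the groups mainly at its low end. In control cells *Tex11* was the highest, *Msh5* and *Hfm1* followed with overlapping ranges, then *Rnf212* and *Ccnb1ip1*, which overlapped, and last *Cntd1*, *Msh4* and *Mlh3*, each overlapping the next. In cKO cells the ranges of neighbours in the order *Tex11*, *Msh5*, *Hfm1*, *Ccnb1ip1*, *Rnf212*, *Mlh3*, *Msh4* and *Cntd1* were apart, except for *Ccnb1ip1* and *Rnf212*. *Cntd1* thus moved from position 6 to position 8. Among the genes tested, the mean FPKM of *Cntd1* was at percentile 51.1 in control and 22.4 in cKO libraries. *Msh4* went from 46.7 to 39.6, *Hfm1* from 88.2 to 81.1 and *Tex11* from 94.2 to 97.1. Of the genes not called, *Ccnb1ip1* went from 64.6 to 72.4 and *Mlh3* from 42.9 to 46.3. *Msh5* was at 90.7 and 90.5, and *Rnf212* at 67.1 and 67.5. Shifts in percentile were thus not confined to the called genes.

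**Figure D2:**
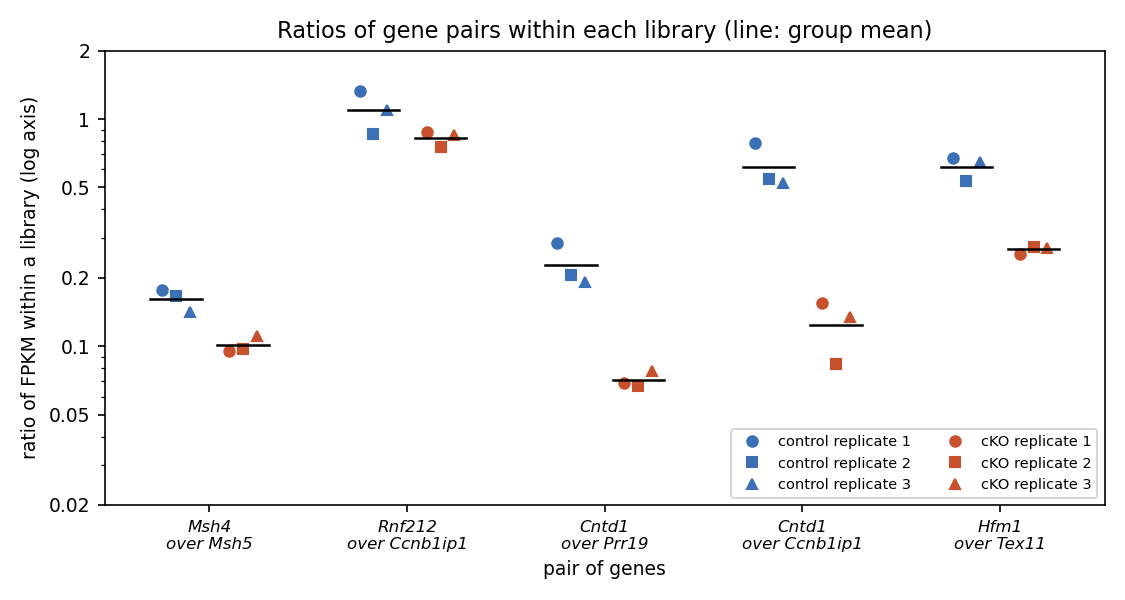
Ratio of the FPKM of 2 genes within each library on a log axis, for 5 pairs of genes, with points, shapes and mean lines by library and group. The cKO ratios lie below all control ratios for *Msh4* over *Msh5*, *Cntd1* over *Prr19*, *Cntd1* over *Ccnb1ip1* and *Hfm1* over *Tex11*, and overlap them for *Rnf212* over *Ccnb1ip1*.

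The 250 bases before and 30 bases after the RefSeq transcription start (assembly GRCm38.p6) are shown for the 3 lower genes and for *Msh5*, the partner of *Msh4*, to set the sequences of lower genes beside that of a gene that was not called. Each sequence runs 5′ to 3′ on the strand of its gene. Capitals mark matches to CNCCTCAG, the letters searched for the STRA8 motif, on either strand.
Cntd1, chr11:101278953-101279232, plus strand: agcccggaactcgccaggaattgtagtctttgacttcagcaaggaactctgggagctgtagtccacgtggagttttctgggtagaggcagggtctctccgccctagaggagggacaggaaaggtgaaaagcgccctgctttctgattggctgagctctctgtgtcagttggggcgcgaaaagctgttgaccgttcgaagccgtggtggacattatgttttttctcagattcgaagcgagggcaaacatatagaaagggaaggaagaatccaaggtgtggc
Msh4, chr3:153904862-153905141, minus strand: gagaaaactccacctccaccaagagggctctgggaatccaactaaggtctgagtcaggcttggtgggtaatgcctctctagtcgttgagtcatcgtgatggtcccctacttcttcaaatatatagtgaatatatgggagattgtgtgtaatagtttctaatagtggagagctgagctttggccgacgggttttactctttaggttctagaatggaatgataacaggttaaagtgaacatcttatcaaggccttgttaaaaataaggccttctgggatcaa
Msh5, chr17:35046593-35046872, minus strand: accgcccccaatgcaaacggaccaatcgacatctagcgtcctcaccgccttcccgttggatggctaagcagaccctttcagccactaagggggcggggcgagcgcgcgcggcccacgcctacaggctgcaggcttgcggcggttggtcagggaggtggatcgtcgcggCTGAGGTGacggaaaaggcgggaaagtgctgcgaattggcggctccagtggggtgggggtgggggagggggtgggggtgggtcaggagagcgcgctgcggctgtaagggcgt
Hfm1, chr5:106925861-106926140, minus strand: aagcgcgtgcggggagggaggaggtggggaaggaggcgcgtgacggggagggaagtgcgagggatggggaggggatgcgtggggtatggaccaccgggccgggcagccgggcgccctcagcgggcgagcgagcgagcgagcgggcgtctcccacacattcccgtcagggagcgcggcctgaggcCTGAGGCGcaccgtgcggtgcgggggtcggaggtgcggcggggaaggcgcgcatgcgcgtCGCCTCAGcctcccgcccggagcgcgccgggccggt

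STRA8 is the factor that starts the meiotic programme together with MEIOSIN. Its motif was found in the windows of 2 of the 7 crossover genes that have one. *Hfm1* held 2 matches, at positions -66 to -59 on the strand opposite to the gene and -6 to 2 on the strand of the gene, counted from the start, and *Msh5* held 1, at -82 to -75 on the strand opposite to the gene. Of all 32851 RefSeq windows, which run from 250 bases before to 50 bases after the start, 7.94% held a match and 0.511% held 2 or more. *Hfm1*, with 2 matches, was lower and *Msh5*, with 1, was not called. *Cntd1* and *Msh4*, which were also lower, held no match. Searched in the same way on both strands, GTTGCC (RFX) was found in *Rnf212* only, at -212 to -207, against 12.5% of all windows. GCAGTT (MYB) and TGACGTCA (CRE) were found in none of the 7, against 13.7% and 1.79% of all windows. GC content of the window ranged from 43.3% in *Msh4* through 51.3% in *Cntd1* and 67.3% in *Msh5* to 75.3% in *Hfm1*. These matches are letters in a window and were not tested as binding sites. A single RefSeq start was used per gene, so matches and GC content describe that start only. The windows of *Msh4*, *Hfm1* and *Ccnb1ip1* lie inside the GENCODE spans of these genes.

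Among the other genes of crossover formation, the shares of lower genes were near the background of 22.2%. Of 6 other class I factors, 5 were matched in the table and tested (*Exo1*, *Rnf212b*, *Shoc1* under the name *AI481877*, *Prr19* and *Cdk2*), with 0 higher and 1 lower by limma and a median log2 fold change of 0.025. At an unadjusted p under 0.05, 0 were higher and 2 were lower (*Prr19* and *Cdk2*), and limma-voom called 0 higher and 1 lower. The lower gene was *Prr19*, whose product works with CNTD1 at crossover sites. *Prr19* FPKM was 31.8, 33.1 and 36.0 in control and 27.5, 22.7 and 24.4 in cKO libraries, and the groups did not overlap. Its mean went from 33.7 ± 2.16 to 24.8 ± 2.42 FPKM (SD, n = 3, log2 fold change -0.43, standard error 0.091, limma adjusted p = 0.012). Scaling to early meiotic prophase genes ended this call, with 0 of the class I factors lower. *Cntd1* over *Prr19* was 0.227 ± 0.0503 in control and 0.0712 ± 0.00571 in cKO libraries, 0.313 times the control ratio. *Cntd1* over *Ccnb1ip1*, another gene of crossover designation, was 0.616 ± 0.147 and 0.124 ± 0.0368. The separation of both ratios was fixed by the values of the genes themselves and is no further result.

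Of 10 genes for resolvases and helicases that act on joint molecules, 0 were higher and 2 were lower by limma (median log2 fold change 0.063). At an unadjusted p under 0.05, 3 were higher and 2 were lower, and limma-voom called 1 higher and 2 lower. With a mean of at least 5 FPKM, median of ratios scaling, FPKM from recovered fragments or eBayes without trend 1 was also higher, and under quantile normalization 4 were, beside 1 class I factor. *Slx4*, the scaffold that gathers structure-specific nucleases, went from 14.7 ± 1.48 FPKM in control to 6.65 ± 0.868 FPKM in cKO libraries (SD, n = 3, log2 fold change -1.04, standard error 0.12, limma adjusted p = 6.2e-04). *Mus81*, the class II nuclease that SLX4 binds, had 8.90 ± 0.322 and 4.89 ± 0.271 FPKM (log2 fold change -0.75, standard error 0.086, adjusted p = 7.2e-04). The value for *Eme1*, the partner subunit of MUS81, was 0.25 (standard error 0.079, adjusted p = 0.051). *Eme1* was thus not called, and its value had the opposite sign to that of *Mus81*.

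**Figure D3:**
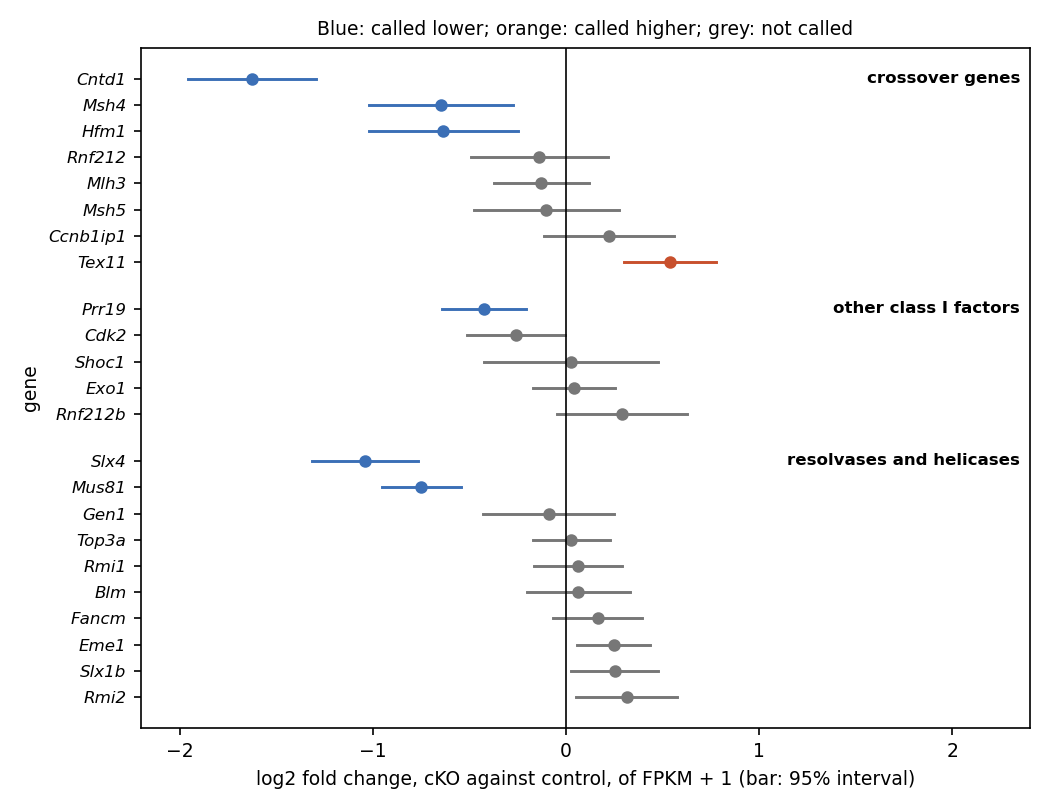
Log2 fold change, cKO compared with control, of FPKM + 1 with 95% confidence intervals, for the 8 crossover genes and the 2 other lists. Intervals of the called genes *Cntd1*, *Msh4*, *Hfm1*, *Prr19*, *Slx4* and *Mus81* lie below 0 and that of *Tex11* lies above 0, the intervals of *Cdk2* (below) and *Eme1*, *Rmi2* and *Slx1b* (above) also leave out 0 without a call, while the values of *Msh5*, *Mlh3* and *Rnf212*, near 0, change sign between alternatives.

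Control replicate 2 was the lowest control library for 6 of the 8 crossover genes (75%), against 39.1% of all genes tested, and cKO replicate 2 was the highest cKO library for 7 of the 8 (87.5%), against 38.8%. These shares are a description and were not tested. The geometric mean of 11 early meiotic prophase markers was likewise lowest in control replicate 2 and highest in cKO replicate 2 of its group, which does not hold for each marker (*Rec8* was lowest in control replicate 3 and highest in cKO replicate 3). It was 100.9, 73.5 and 92.9 FPKM in the control libraries, against 78.1, 90.2 and 70.5 FPKM in the cKO libraries. As a percentage of that mean, *Msh5* was 45.5, 42.5 and 45.6 in control and 46.2, 46.2 and 46.1 in cKO libraries. The libraries of both groups came close together for *Msh5*, and the highest-to-lowest ratio became smaller for 5 of 8 genes in control and 7 of 8 in cKO libraries. The share of all genes that came closer was not computed, so nothing particular to the crossover genes is read from these counts. Chosen after the data were seen, this scaling moved the median of all genes by 0.13 (log2). Under it *Cntd1* (-1.50, limma adjusted p = 7.4e-04), *Msh4* (-0.51, adjusted p = 0.047) and *Hfm1* (-0.48, adjusted p = 0.025) were lower, *Tex11* (0.69, adjusted p = 0.0047) was higher and the other 4 were not called. *Spo11* and *Rec8*, of the markers used for scaling, were themselves lower in cKO cells (log2 fold changes -1.01 and -0.56).

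**Figure D4:**
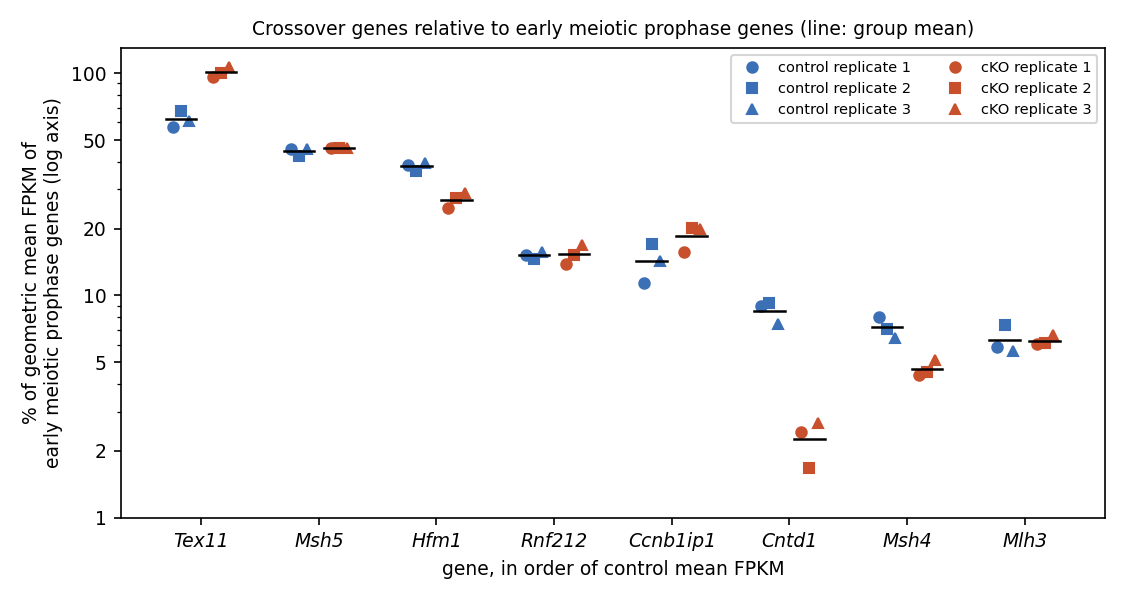
FPKM of the 8 crossover genes as a percentage of the geometric mean of 11 early meiotic prophase genes in the same library, on a log axis, with points, shapes and mean lines by library and group. *Tex11* is higher and *Hfm1*, *Cntd1* and *Msh4* are lower in every cKO library than in every control library, and the 6 *Msh5* points lie between 42.5% and 46.2%.

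Markers of germ cell stages differed beside these genes. Among 10 pachytene markers 9 were lower and 0 higher, with a summed FPKM of 753 to 922 in control and 134 to 155 in cKO libraries, and *Ldhc*, the most abundant, was at 385.1 ± 44.8 and 1.08 ± 0.354 FPKM. All 10 spermatid markers were lower. Markers of early meiotic prophase were summed to 1054 to 1473 FPKM in control against 1167 to 1540 FPKM in cKO libraries, with 2 of 11 lower. The 7 markers of differentiating spermatogonia (1 lower, *Dmrtb1*) summed to 573 to 598 and 592 to 642 FPKM, and the 10 of undifferentiated spermatogonia (1 higher, *Ret*, and 1 lower, *Id4*) to 56.8 to 70.8 and 62.7 to 71.3 FPKM. Somatic markers (23 genes, 13 tested, 1 higher, *Rhox5*) summed to 86.3 to 98.5 FPKM in control against 67.8 to 142 FPKM in cKO libraries. No gene of these lists was at 0 in every library of a group. The part of these stages in the *Cntd1*, *Msh4*, *Hfm1* and *Tex11* results was not tested. Without control replicate 2, which stood apart in spermatid markers, the log2 fold changes were -1.69 for *Cntd1*, -0.77 for *Msh4*, -0.80 for *Hfm1* and 0.47 for *Tex11*, all still called, but the other control libraries were also far above the cKO libraries in these markers, so the difference in stages remained in place.

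**Figure D5:**
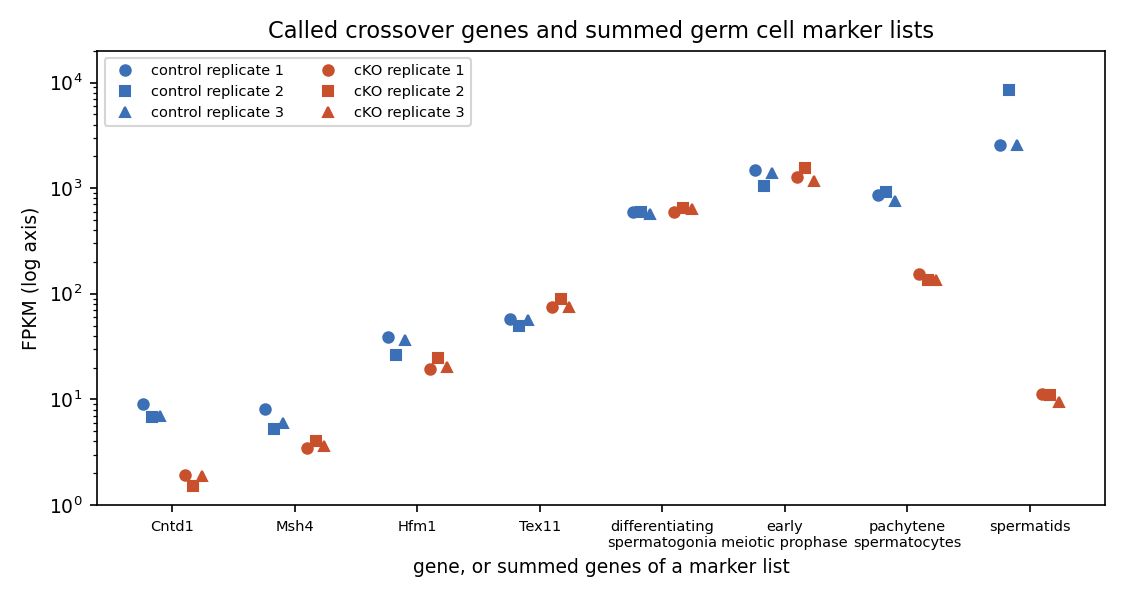
FPKM of the 4 called crossover genes and summed FPKM of 4 germ cell marker lists in each library, on a log axis, with blue for control, orange for cKO and the shape for the replicate. Pachytene and spermatid sums are lower in all cKO libraries, spermatogonial and early prophase sums overlap, and *Tex11* alone of the 4 genes is higher.

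The genes whose profile over the 6 libraries was nearest to that of *Cntd1* were *Wdr66*, *9330102E08Rik* and *Dnah6*, by the root mean square difference of centred log2(FPKM + 1), which was 0.0313, 0.0429 and 0.0636. *Wdr66* and *Dnah6* encode proteins of cilia and flagella. *Wdr66* averaged 2.99 FPKM in control against 0.312 FPKM in cKO libraries, *9330102E08Rik* had 30.8 and 8.93 FPKM, and *Dnah6* had 2.38 and 0.0834 FPKM. *Wdr66* and *Dnah6* fell by a larger fold than *Cntd1*, from a lower level, and passed the filter of 1 FPKM through the control group, so their likeness to *Cntd1* comes from the 1 added to each FPKM and is a description of that scale.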

How the data were processed

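RNA-seq of STRA8+ cells was analysed in 6 libraries, grouped by the genotype in their labels. The authors deposited FPKM per gene, with each gene's length. The submitters' processing notes name HISAT2 2.0.5 and mm10, and the counting tool, its strand setting and the annotation release are not given in the sources used here. For all 8 crossover genes the deposited length equalled the exonic length in GENCODE M21. FPKM times length fell on whole fragments (tolerance 0.01) for 100% of values, which gave 15364511 to 17310353 fragments per control and 14447887 to 15326722 per cKO library. The FPKM denominator was 0.971 to 1.05 times these totals.

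The 15451 genes that averaged 1 FPKM or more were tested on log2(FPKM + 1) with limma 3.58.1 in R 4.3.3 (lmFit, eBayes with trend, two-sided), with Benjamini-Hochberg adjustment over all genes and a threshold of 0.05. Intervals are 95% confidence intervals of this fit, and SD are over 3 libraries. Ratios within libraries were compared with exact permutation tests (SciPy 1.17.1). The crossover genes and all lists were chosen with earlier results of these data known. The text names the 8 genes, each gene called in a pathway list, the targeted gene, *Stra8*, up to 2 of the most abundant genes of a marker list and the 3 profiles nearest to the crossover gene with the largest called change. Other pathway and marker genes were named after their values were seen. Some genes of the pathway lists are not reported here. Promoter windows came from RefSeq (GRCm38.p6).

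Alternatives were a pseudocount of 0.1, no filter or a higher one (5 FPKM), median of ratios scaling, quantile normalization, FPKM from recovered fragments, limma-voom on recovered fragments, eBayes without trend, a minimum absolute log2 fold change of 1, the replicate number as a block, each library left out and, added after seeing the data, scaling to early meiotic prophase genes.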

Additional observations from a re-analysis of the deposited data

How the results depend on the processing

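*Cntd1* and *Tex11* kept their calls in every alternative that tested them, with log2 fold changes of -2.09 to -1.32 and 0.45 to 0.69; *Cntd1* was not tested with a mean of at least 5 FPKM, and *Tex11* does not reach an absolute log2 fold change of 1. *Msh4* was called in 12 of 16 and *Hfm1* in 11 of 16 alternatives. Quantile normalization put *Msh4* at -0.34 (limma adjusted p = 0.14). No label says whether replicate numbers pair the libraries. The correlations of same-numbered deviations were -0.0014, -0.11 and 0.016, against -0.15 to 0.13 for different numbers. With 3 libraries in a group, these values cannot show whether there was a pairing. With the replicate block, *Msh4* (-0.65, adjusted p = 0.056) and *Hfm1* (-0.63, adjusted p = 0.068) were not called. In that fit 1 crossover gene was lower, beside 2870 (18.6%) of all genes, and 891 of all genes were higher. Leaving out each library in turn gave -0.77 to -0.49 for *Msh4*, -0.80 to -0.53 for *Hfm1*, -0.26 to 0.0072 for *Msh5*, 969 to 1767 genes higher, 2693 to 3510 genes lower and 1 to 3 crossover genes lower (1 without cKO replicate 1 or 3). Signs turned, with no call, for *Msh5* (0.051), *Mlh3* (0.0031) and *Rnf212* (0.0075) under scaling to early meiotic prophase genes, and for *Mlh3* (0.16) and *Rnf212* (0.039) under quantile normalization; the cause was not tested.

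Of all genes, 1821 were higher and 3437 lower. Quantile normalization, which moved the median of all genes by 0.22, gave 5164 higher, so that 67.1% of calls were higher in place of 34.6%, and it called 1 class I factor and 4 resolvases or helicases higher. Relative to its median, *Cntd1* was at -1.54, *Hfm1* at -0.73, *Msh4* at -0.56 and *Tex11* at 0.40. The block lowered the share of higher calls to 23.7%. Scaling to early meiotic prophase genes gave 1213 higher, 2196 lower and 0 class I factors lower. A mean of at least 5 FPKM, which tests fewer genes, gave 1950 lower. A minimum absolute log2 fold change of 1 gave 177 higher, 1939 lower, 0 crossover genes higher and 1 lower. The count of resolvases and helicases called higher was 1 with a mean of at least 5 FPKM, median of ratios scaling, recovered-fragment FPKM, limma-voom and eBayes without trend. With 98 to 132 fragments per cKO library, *Cntd1* is the crossover gene with the fewest.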
